A study of Medicago sativa with 9 samples.

Results

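A set of 154 alfalfa genes for cellulose synthesis, laccases and fasciclin-like arabinogalactan proteins was followed in leaves under selenite. The genes were chosen by their deposited descriptions (cellulose synthase, COBRA, laccase, fasciclin, irregular xylem or glucuronoxylan) and by an FPKM, the fragment count scaled by transcript length and sequencing depth, of at least 1 in at least 3 of 9 libraries. They are 154 of the 50878 genes that passed this filter, out of 164632 in the table. Alfalfa (Medicago sativa) is a tetraploid forage legume, and the table places most genes on 4 copies of each of 8 chromosomes. Each time gave 3 libraries of leaf poly(A) RNA: 0, 12 and 48 h after selenite (Se(IV)) was given at 100 mg per kg. The labels give no cultivar and no plant age. Since all libraries of 12 and 48 h were treated, selenite and time of sampling cannot be told apart. Whether replicate libraries stem from different plants is not given in the labels, and p-values then cover only the variation among these libraries, possibly technical.

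Cellulose is spun into the wall by complexes of cellulose synthase A (CESA) subunits in the plasma membrane. In Arabidopsis, subunits such as CESA1, CESA2 and CESA3 serve the thin primary wall of growing cells, and CESA4, CESA7 and CESA8 serve the thick secondary wall of water-conducting xylem and fibres. Around them stand proteins that guide the complex along microtubules, GPI-anchored COBRA proteins that affect how cellulose is laid down, enzymes for xylan, laccases that oxidise lignin precursors, and fasciclin-like arabinogalactan proteins (FLAs), glycoproteins at the cell surface. Cellulose synthase-like (CSL) proteins share the enzyme fold, and several of them make other polymers. In a leaf, secondary walls lie mainly in the veins. In bulk RNA, fewer cells of a type and less RNA per cell cannot be told apart.

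The descriptions matched 529 genes. Of these, 167 had no count in any library and 208 had counts but stayed under the filter. The 154 that passed carried 37 descriptions, and 148 of them lay on numbered chromosomes, most often on chromosomes 2, 3 and 4 with 41, 34 and 28 genes. They fell into 18 primary wall CESA genes, 8 secondary wall CESA genes, 3 genes described as cellulose synthase 3 that were left unplaced, and 10 genes for CELLULOSE SYNTHASE INTERACTIVE 1 (CSI1). A further 38 were CSL genes of groups D, E, G and H, with 14 COBRA, 8 laccase, 50 FLA and 5 xylan genes beside them. All 5 xylan genes carried the description glucuronoxylan glucuronosyltransferase IRX7. Of 94 laccase matches 8 passed. CESA7 did not pass, and its highest FPKM in any library was 2.19. For 10 members the filter was met at a single time, which favours a difference at that time in each of them and in the counts that include them. At 12 h alone these were 3 CSLD3 copies, 2 FLA1 copies and a copy each of laccase-7 and IRX7. At 48 h alone they were the CSI1 copies MS.gene023795 and MS.gene42235, and at 0 h alone the COBRA-like protein 2 copy MS.gene99760. Members that met the filter only in libraries of 0 and 48 h are likewise favoured towards a lower value at 12 h. Among these are the CESA8 copy MS.gene01595, the COBRA-like protein 4 copy MS.gene021978 and the FLA12 copies MS.gene028737 and MS.gene42830. Others are the laccase-2 member, the laccase-4 members on chromosome 3, and the FLA11 members on chromosomes 2 and 4. So is the FLA12 member on chromosome 4. The laccase-4 members on chromosome 4 could meet the filter at 12 h in replicate 3 at most. The 27 members at the minimum in exactly 3 libraries had mean FPKM of 0.498 to 4.17, and the 19 matches with exactly 2 such libraries had 0.331 to 1.48.

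Libraries held 39936347 to 56137145 counts, and the 154 genes held 0.115% to 0.299% of them. A count of 3 corresponded to 0.0534 to 0.0751 CPM, counts scaled to library size, a limit that covers counting error only. Scaling factors (TMM, trimmed mean of M values) were 1.20 to 1.27 at 12 h, 0.856 to 0.988 at 0 h and 0.835 to 0.933 at 48 h. Fitted log2 changes therefore run lower than FPKM ratios for 12 h against 0 h: with library totals alone, the median log2 change of all genes was 0.39 for 12 h against 0 h, -0.14 for 48 h against 0 h and -0.54 for 48 h against 12 h. Copy usage, the split of a gene's reads over its chromosome copies, differed by only 9.24% to 9.40% of reads among the 12 h libraries and by 10.4% between 48 h replicates 1 and 3, against 20.2% to 23.9% for every other pair. When the libraries of like copy usage were summed to 1, edgeR called 0 of the 154 genes in every comparison. At an unadjusted p under 0.05 that fit had 23 genes for 12 h against 0 h, 10 for 48 h against 0 h and 20 for 48 h against 12 h. Only edgeR was applied to these summed libraries. All calls below take the 9 libraries as independent samples.

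At 0 h the largest sums belonged to the FLA family with 192, 422 and 261 FPKM and to group G of the CSL family with 362, 180 and 206 FPKM. Primary wall CESA genes summed to 158, 166 and 120 FPKM, and secondary wall CESA genes to 7.18, 19.8 and 4.90 FPKM. The leaf samples thus held far more primary than secondary wall CESA transcript per length in each of the 3 libraries. The single gene of highest mean was a CSLG3 gene, MS.gene29949, at 50.4 FPKM over the 9 libraries, against a median of 2.95 FPKM over the 154 members and 3.54 FPKM over all genes tested.

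The comparison of 12 h with 0 h asks what the wall genes did early under selenite. Called lower at 12 h were FLA12 and laccase-4 on the chromosomes with members, FLA11 on 2 of 3 chromosomes, laccase-2, a CESA8 copy, and a copy each of COBRA-like proteins 2 and 4. Of the genes tied to secondary walls or xylem in Arabidopsis, summed CESA4, CESA8, COBRA-like protein 4 and FLA11 on chromosome 7 did not pass, and IRX7 was higher on chromosome 4. CSI1 on chromosome 7, CSLH1, a CESA3 group and the first of 2 CESA1 positions were lower as well. Higher at 12 h were CSLG2, IRX7 on chromosome 4, the other CESA1 position, an FLA13 gene and a cellulose synthase 3 gene. By edgeR at an adjusted p of at most 0.05, 15 of the 154 genes (9.74%) were lower and 6 (3.90%) were higher, beside 4.29% lower and 1.58% higher of all genes tested. With library totals alone in place of TMM the split was 9 lower and 10 higher. On the TMM scale all 3 libraries of 12 h lay below all 3 of 0 h for 49 members (31.8%, against 17.8% of all genes) and above them for 28 (18.2%, against 19%). The median log2 change of the members was -0.60, beside -0.01 for all genes. The number of calls rested on single libraries, with 2 genes called without 12 h replicate 2 and 4 without 12 h replicate 1. Without 0 h replicate 1 or 3, 12 h replicate 3, or 48 h replicate 1 or 3 it was 11 or 12, and without 48 h replicate 2 it was 27.

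**Figure D1:**
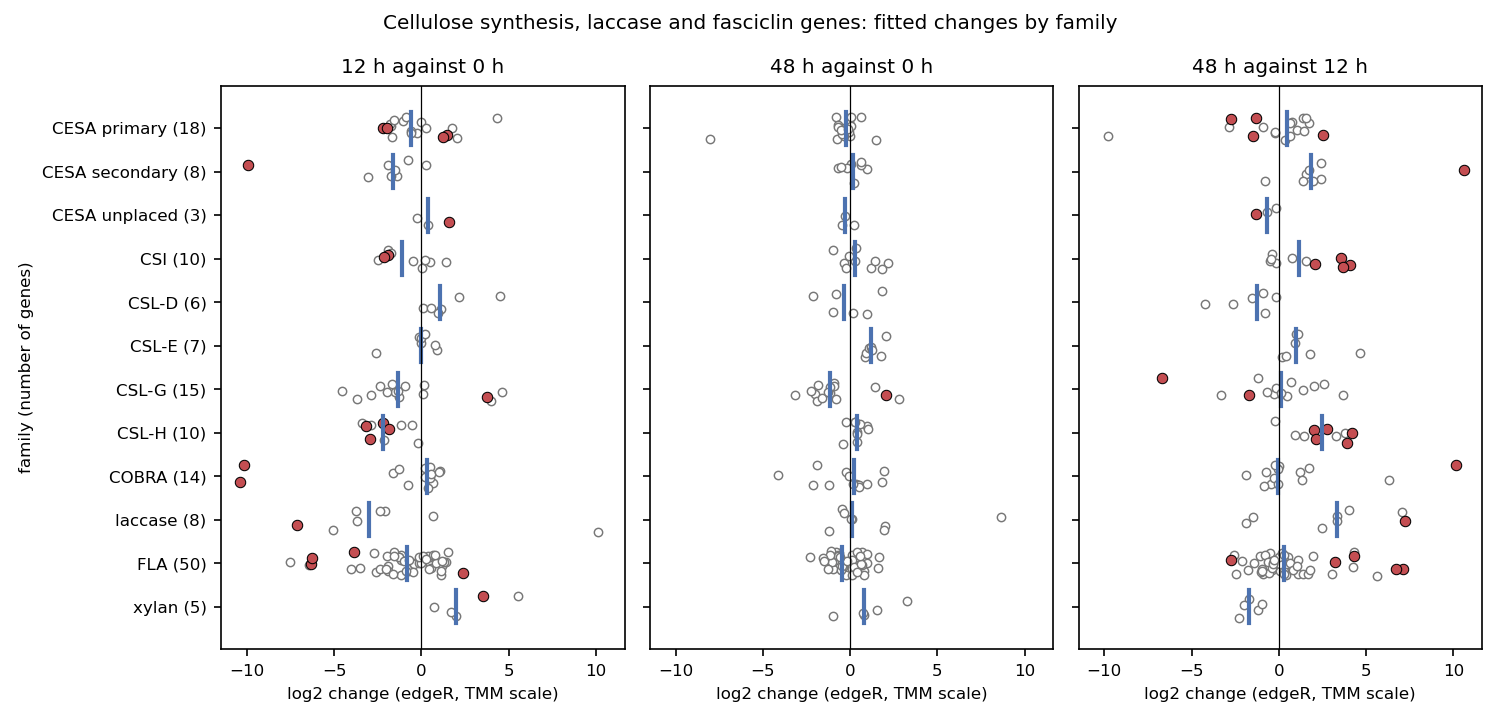
Fitted log2 change (x axis, TMM scale) of each of the 154 genes by family (y axis) for the 3 comparisons. Each point is a gene, red points passed an edgeR adjusted p of 0.05, blue bars are family medians, and points near -10 or 10 are genes without a count in a whole group, whose position depends on the prior count. Laccase, CSL-H and secondary wall CESA medians lie below 0 for 12 h against 0 h (-3.02, -2.19 and -1.63) and above 0 for 48 h against 12 h (3.34, 2.45 and 1.86). The laccase-2 and laccase-4 genes met the FPKM filter mainly through 0 and 48 h, which favours both signs of the laccase medians.

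The 4 chromosome copies of a gene are near-identical and can exchange reads. Genes of one description on one chromosome were therefore added up in each library. The 154 members lie in 51 such groups, called summed copies here, which also take in copies under the filter. For 12 h against 0 h, 10 groups (19.6%) were lower and 3 (5.88%) higher, beside 8.36% lower and 4.93% higher of all 19802 groups. Without 1 library in turn, 6 groups (without 12 h replicate 1 or 2) to 15 groups (without 48 h replicate 2) were called, and 8 without 0 h replicate 2 or 3 or 48 h replicate 1. When groups whose genes lie over 20 Mb apart were split, a step added after the data were seen, 11 of 54 were lower and 3 higher, beside 8.29% and 4.84% of 20200.

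FLA11 and FLA12 are found in Arabidopsis in stem tissue that forms secondary walls. Summed FLA12 on chromosome 2 (11 genes, starting at 7.19 to 69.0 Mb) stood at 10.9, 21.0 and 9.85 FPKM at 0 h, at 2.05, 1.94 and 1.10 FPKM at 12 h, and at 23.4, 12.4 and 13.7 FPKM at 48 h. The 12 h libraries lay below all others. The log2 change for 12 h against 0 h was -3.34 ± 0.44 (SE; edgeR adjusted p = 0.00247), and the call held without each of the 9 libraries. Its 2 positions on the chromosome, at 7.19 to 9.11 Mb and at 66.9 to 69.0 Mb, were lower by fitted log2 changes of -3.12 and -3.87 when summed apart. Summed FLA12 on chromosome 4 had 0.0604, 0.328 and 0.0783 FPKM at 12 h, against 1.58, 4.38 and 2.06 FPKM at 0 h, with a log2 change of -4.38 ± 0.79 (edgeR adjusted p = 0.00935) that also held without each library. The member in this group met the filter only through 0 and 48 h, which favours a lower value at 12 h.

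A further view comes from the 3 FLA12 genes that were called singly. MS.gene028737 (chromosome 2.1, 9110169 to 9110792) had 0.0551, 0.0175 and 0 FPKM at 12 h, against 2.04, 2.66 and 1.18 FPKM at 0 h (log2 change -6.31 ± 1.16, edgeR adjusted p = 0.0207). MS.gene42830 (chromosome 2.3, 7886581 to 7887204) had 0.110, 0.0175 and 0 FPKM at 12 h, against 3.01, 5.15 and 1.19 FPKM at 0 h (log2 change -6.30 ± 1.23, edgeR adjusted p = 0.0258). Both were near the limit of a few counts at 12 h, and both calls were lost without 12 h replicate 2, the first also without 12 h replicate 1 (edgeR adjusted p up to 0.0972 and 0.115). The call of MS.gene31312 (chromosome 2.3, 7721705 to 7722457; log2 change -3.85) was lost without any one library but 48 h replicate 2 (edgeR adjusted p up to 0.157).

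FLA11 was called lower on 2 of its 3 chromosomes. On chromosome 2 its summed copies had 0.339, 0.310 and 0 FPKM at 12 h, against 2.74, 5.25 and 1.70 FPKM at 0 h (log2 change -4.26 ± 1.19, edgeR adjusted p = 0.0479). On chromosome 4 they had 0.433, 0.818 and 0 FPKM at 12 h, against 10.3, 15.5 and 2.54 FPKM at 0 h (log2 change -4.72 ± 1.30, edgeR adjusted p = 0.0457). In neither case did the libraries of 12 h overlap those of 0 h. Both sums stayed under the minimum of 1 FPKM at 12 h. Their members thus met the filter only through 0 and 48 h, which favours a lower value at 12 h. The first call held only without 12 h replicate 3 and the second only without 12 h replicate 3 or 48 h replicate 2, with edgeR adjusted p up to 0.128 and 0.148 in the other fits. The chromosome 4 sum takes in 8 genes that start at 13.2 to 49 Mb. Its 5 genes at 13.2 to 13.4 Mb, which include both members, were not called when summed apart (log2 change -4.06 ± 1.27, edgeR adjusted p = 0.0695). On chromosome 7, where FLA11 was most abundant, it had 6.73, 4.82 and 2.83 FPKM at 12 h and 5.57, 27.5 and 8.88 FPKM at 0 h. These FPKM overlapped, the scaled values did not, and the log2 change of -1.97 did not pass (edgeR adjusted p = 0.0966).

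Laccase-4, which in Arabidopsis stems takes part in lignin polymerisation, was lower at 12 h on chromosomes 3 and 4, which hold its members. On chromosome 3 its summed copies had 2.58, 8.92 and 3.70 FPKM at 0 h, 0.575, 0.713 and 0.932 FPKM at 12 h, and 7.18, 10.1 and 1.61 FPKM at 48 h. The log2 change for 12 h against 0 h was -3.17 ± 0.74 (edgeR adjusted p = 0.0258), lost without 0 h replicate 2 or any 12 h library (up to 0.106). On chromosome 4 they had 1.12, 0.818 and 1.41 FPKM at 12 h, against 3.33, 14.2 and 3.59 FPKM at 0 h (log2 change -3.05 ± 0.80, edgeR adjusted p = 0.0391). That call was lost without 0 h replicate 2 or 3, any 12 h library or 48 h replicate 1 (up to 0.139). The highest laccase-4 library at 0 h was replicate 2 on both chromosomes. The 5 laccase-4 members together had 0.947, 0.853 and 1.65 FPKM at 12 h. They met the filter mainly through 0 and 48 h, which favours a lower value at 12 h.

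The remaining laccases did not all follow. Summed laccase-2, on chromosome 4, had 0, 0 and 0.0519 FPKM at 12 h, against 1.11, 2.47 and 0.0947 FPKM at 0 h (log2 change -6.15 ± 1.58, edgeR adjusted p = 0.0369). It was lost without 0 h replicate 1 or 2, 12 h replicate 1 or 2, or 48 h replicate 1 (up to 0.118). Its only member met the filter in libraries of 0 and 48 h alone, which favours a lower value at 12 h. A single laccase-4 copy, MS.gene33479 (chromosome 4.3, 83300320 to 83304040), was called at an edgeR adjusted p of 0.0486, and the call was lost in all 9 fits without 1 library (up to 0.149). The laccase-7 copy MS.gene055125 (chromosome 7.4), which met the filter through 12 h alone, had 1.57, 2.11 and 1.63 FPKM at 12 h and no count in any 0 h library (edgeR adjusted p = 0.0672). Summed over 9 genes, laccase-7 had 2.5, 5.9 and 3.68 FPKM at 12 h, all above the 1.2, 0.291 and 0.501 FPKM of 0 h. This sum did not pass (log2 change 2.21 ± 0.64, edgeR adjusted p = 0.0554).

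Of 8 secondary wall CESA genes 7 had a log2 change below 0 for 12 h against 0 h, where the median over all genes was -0.01. Of the 8, 1 was called lower, beside 4.29% of all genes. MS.gene01595, a CESA8 copy (chromosome 2.2, 67070505 to 67075909), had no count in the 3 libraries of 12 h, against 0.670, 1.35 and 0.188 FPKM at 0 h. Taken against a floor of 3 counts per library it was at least 55-fold lower (edgeR adjusted p = 0.00961), and the call held without each library. It met the FPKM filter only in libraries of 0 and 48 h, which favours a lower value at 12 h. Summed CESA8 on chromosome 2 had 1.77, 1.65 and 1.18 FPKM at 12 h, against 2.48, 8.17 and 1.92 FPKM at 0 h (log2 change -1.85 ± 0.57, edgeR adjusted p = 0.0663). The group without counts was thus 1 copy and not the sum. Summed CESA4 had 2.74, 3.17 and 1.15 FPKM at 12 h, against 4.79, 12.9 and 3.09 FPKM at 0 h (log2 change -1.96 ± 0.61, edgeR adjusted p = 0.0702), with overlapping FPKM and separate scaled values. The CESA8 gene on chromosome 4, MS.gene023591, stood apart from those on chromosome 2 with 1.20, 1.03 and 1.38 FPKM at 12 h, against 0.596, 1.26 and 0.506 FPKM at 0 h, and did not pass (log2 change 0.24, edgeR adjusted p = 0.822).

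COBRA-like protein 4 belongs to the same class in Arabidopsis, where its loss weakens secondary walls. Its copy MS.gene021978 (chromosome 7.1, 80406795 to 80409921) had no count at 12 h, against 0.113, 4.62 and 1.02 FPKM at 0 h, at least 64.5-fold lower against the floor (edgeR adjusted p = 0.0386). This copy, too, met the filter only in libraries of 0 and 48 h. The call held only without 0 h replicate 1 (up to 0.105), and the summed copies did not pass, with 1.68, 2.09 and 1.21 FPKM at 12 h and 1.04, 9.43 and 2.34 FPKM at 0 h (edgeR adjusted p = 0.171). A copy of COBRA-like protein 2, MS.gene99760 (chromosome 2.1, 34869849 to 34873203), had no count at 12 h either, against 2.21, 3.20 and 1.87 FPKM at 0 h, the only time at which it met the filter. It was at least 76.1-fold lower (edgeR adjusted p = 0.0332), a call that held only without 48 h replicate 1 or 2 (up to 0.0959). Its summed copies overlapped, at 16.8, 13.9 and 32.4 FPKM at 12 h and 12.0, 32.2 and 17.2 FPKM at 0 h. COBRA itself, on chromosome 7, had 24.9, 27.9 and 28.7 FPKM at 12 h, all above the 19.0, 13.3 and 9.72 FPKM of 0 h, and did not pass (log2 change 0.55, edgeR adjusted p = 0.122).

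The sums of these genes by library, and those of xylem markers, are given as a description. CESA4, CESA8, COBRA-like protein 4, laccase-4, FLA11 and FLA12 together, 29 genes grouped after their values were known and without IRX7, summed to 33.4, 105.2 and 32.0 FPKM at 0 h, 16.6, 15.0 and 9.70 FPKM at 12 h, and 65.5, 65.8 and 31.8 FPKM at 48 h. XCP2, a cysteine protease of Arabidopsis xylem vessels, summed over 7 genes to 3.18, 18.8 and 3.10 FPKM at 0 h, 0.796, 0.275 and 0.652 FPKM at 12 h, and 7.03, 7.64 and 2.07 FPKM at 48 h. That the sum of the 29 genes is lowest at 12 h follows from their choice, and XCP2 was likewise singled out from the marker list with its values known. Metacaspase-9, which clears dying xylem cells in Arabidopsis, summed to 0 to 0.269 FPKM at 12 h, against 0.118 to 2.62 FPKM at 0 h. Bifunctional nuclease 1, a marker of xylem and also of leaf senescence, went the other way, with 450, 513 and 269 FPKM at 12 h, against 22.9, 49.8 and 21.7 FPKM at 0 h. The whole list of 15 tracheary genes, 6 of them tested, therefore summed to 270 to 514 FPKM at 12 h and 25 to 69.8 FPKM at 0 h, with none called in either direction. The part of cell composition in the lower wall genes was not tested.

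**Figure D2:**
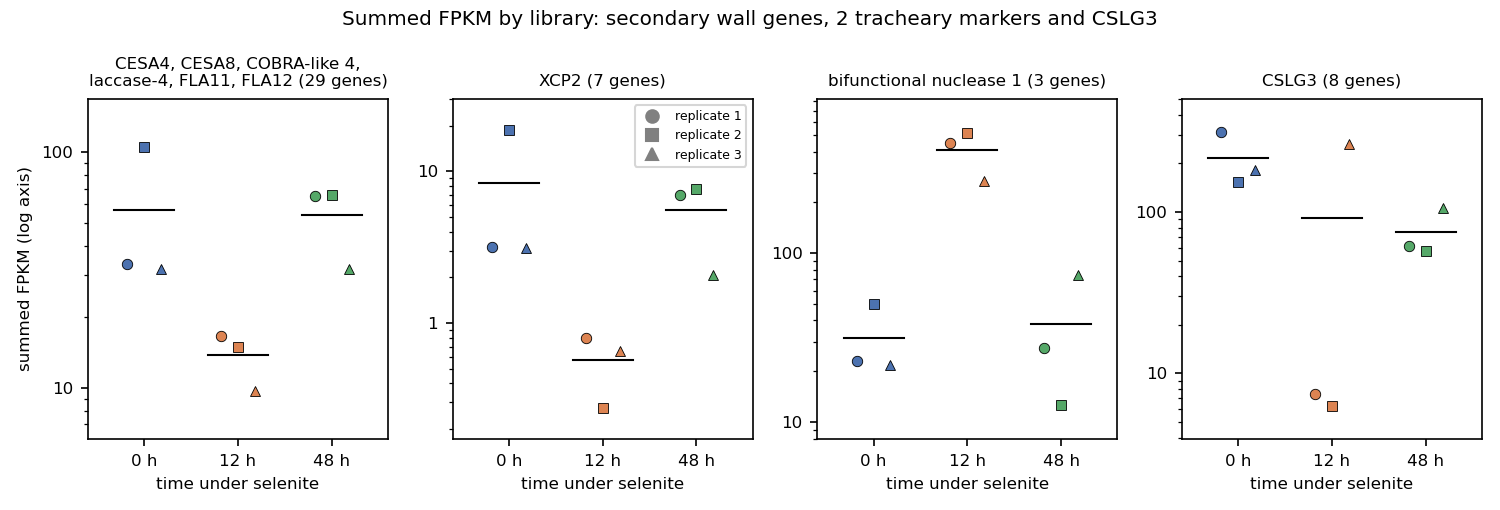
Summed FPKM (y axis, logarithmic) by time under selenite (x axis) for 29 secondary wall genes, 7 XCP2 genes, 3 bifunctional nuclease 1 genes and 8 CSLG3 genes. Points are libraries, shaped by replicate, and bars are means of 3. The 29 genes were grouped, and XCP2 picked, with their values known. In 0 h replicate 2 the 29 genes reach 105.2 FPKM and XCP2 18.8 FPKM. Bifunctional nuclease 1 goes the other way at 12 h, with 450, 513 and 269 FPKM. Metacaspase-9, not drawn, is at 1.17 FPKM in 0 h replicate 2 and at 2.62 FPKM in replicate 1. CSLG3 has 1 library of 12 h at 262 FPKM and 2 others at 7.42 and 6.28 FPKM.

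CSI1, which in Arabidopsis ties cellulose synthase complexes to microtubules, was lower at 12 h on 1 of 3 chromosomes. Its 4 copies on chromosome 7 summed to 9, 6.63 and 8.39 FPKM at 0 h, to 2.65, 1.32 and 2.17 FPKM at 12 h, and to 9.69, 10.1 and 10.9 FPKM at 48 h. The log2 change for 12 h against 0 h was -2.40 ± 0.29 (edgeR adjusted p = 0.0017), the smallest p among the summed copies, and it held without each library. MS.gene27647 (chromosome 7.2, 29590433 to 29592115), the most abundant copy, had 1.79, 0.733 and 1.5 FPKM at 12 h, against 7.14, 3.87 and 6.45 FPKM at 0 h (log2 change -2.51 ± 0.61, edgeR adjusted p = 0.0538). Another 2 copies, MS.gene42235 and MS.gene023795, were called (log2 changes -2.13 and -1.94), each in only 1 of the 9 fits without a library, that without 48 h replicate 2. The copies on chromosome 3 had 8.14, 6.17 and 9.15 FPKM at 12 h and 4.87, 5.85 and 3.66 FPKM at 0 h, separate in FPKM and not called (log2 change 0.29, edgeR adjusted p = 0.458). Those on chromosome 8, annotated as isoform X2, had 5.97, 4 and 5.88 FPKM at 12 h and 5.71, 5.01 and 2.70 FPKM at 0 h (log2 change -0.17, edgeR adjusted p = 0.785).

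Summed CSLH1 on chromosome 2 was lower at 12 h. A CSL-H member in barley makes mixed-linkage glucan. On the TMM scale all 10 CSL-H genes had log2 changes below 0 for 12 h against 0 h, and 4 were called lower, beside 4.29% of all genes. All 3 libraries of 12 h lay below those of 0 h in 7, beside 17.8% of all genes. With library totals alone the isoform X2 gene MS.gene66611 turned to 0.20. The 16 genes described as CSLH1 on chromosome 2, 7 of which passed the filter, summed to 73.5, 28.6 and 41.6 FPKM at 0 h, to 13.9, 12.4 and 9.48 FPKM at 12 h, and to 64.7, 61.9 and 81.1 FPKM at 48 h. The log2 change for 12 h against 0 h was -2.32 ± 0.40 (edgeR adjusted p = 0.00742) and held without each library. The 4 called genes lie within one stretch of chromosome 2.1, from 13893981 to 13997206. MS.gene35710 had 2.17, 1.08 and 1.10 FPKM at 12 h, against 20.3, 5.56 and 5.50 FPKM at 0 h (log2 change -3.19 ± 0.57, edgeR adjusted p = 0.019), lost without any 12 h library (up to 0.0906). The separate group of CSLH1 isoform X2 on chromosome 4 had 22.4, 17.4 and 16.8 FPKM at 12 h and 24.3, 21.3 and 19.8 FPKM at 0 h, and did not pass (log2 change -0.64, edgeR adjusted p = 0.448).

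**Figure D3:**
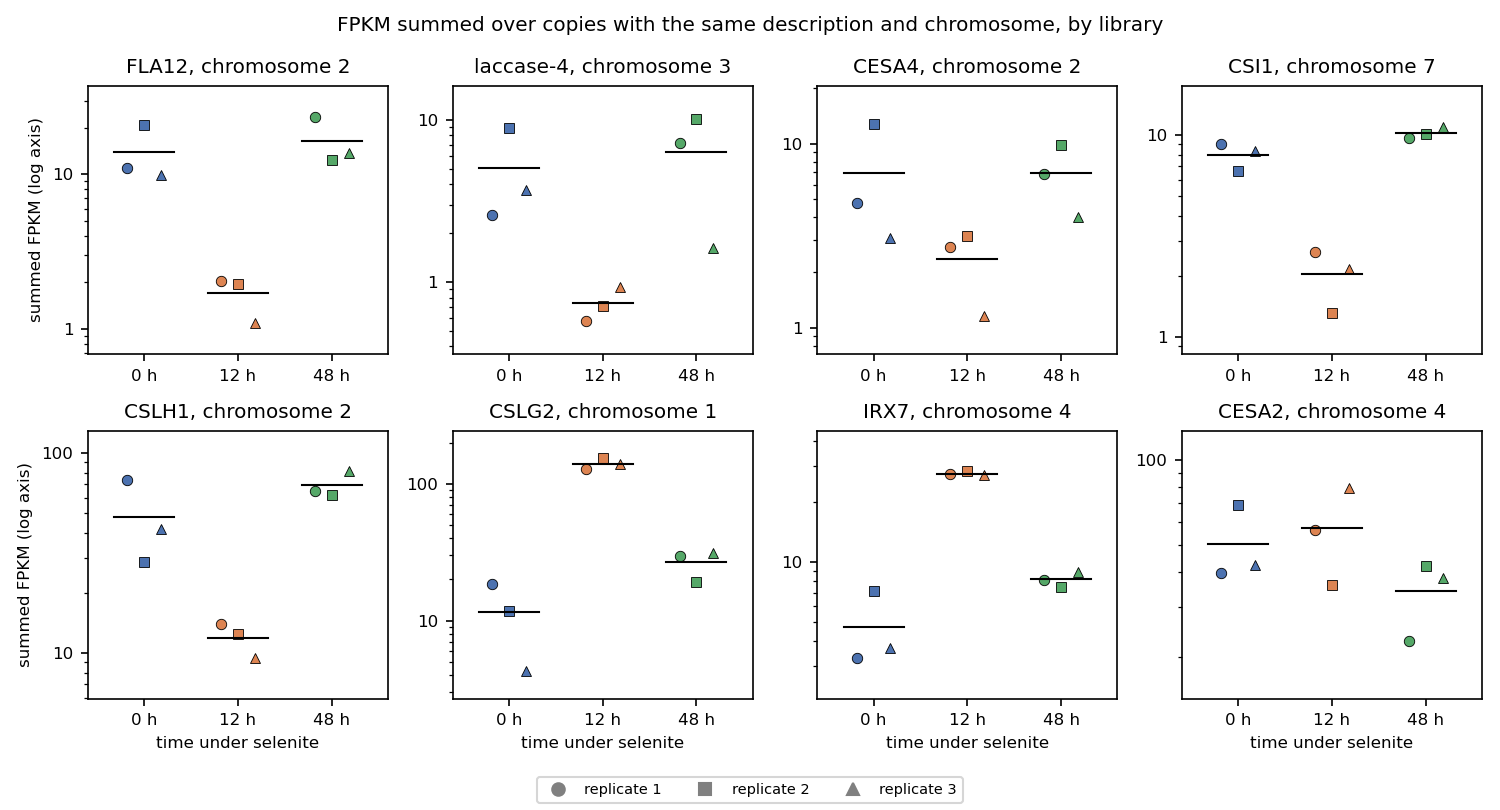
FPKM summed over copies (y axis, logarithmic) by time under selenite (x axis) for 8 groups named by gene and chromosome. Points are libraries, shaped by replicate, and bars are means of 3. FLA12, laccase-4, CSI1 and CSLH1 are lowest in the 3 libraries of 12 h, CSLG2 and IRX7 are highest there, and CESA2 overlaps at 36.0 to 79.3 FPKM for 12 h against 39.5 to 69.1 FPKM for 0 h.

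Among primary wall genes, CESA1 moved in opposite directions at the 2 positions it holds on chromosome 3. In Arabidopsis CESA1 is a required subunit of primary wall complexes. The 4 genes at 31.5 to 39.1 Mb summed to 70.1, 35.7 and 32.2 FPKM at 0 h, to 15.2, 13.2 and 18.0 FPKM at 12 h, and to 28.4, 46.8 and 29.9 FPKM at 48 h. The 5 genes at 85.1 to 93.4 Mb summed to 25.6, 36.3 and 18.4 FPKM at 0 h, to 110, 94.0 and 119 FPKM at 12 h, and to 18.7, 27.9 and 22.7 FPKM at 48 h. For 12 h against 0 h the log2 change was -1.97 ± 0.33 at the first position (edgeR adjusted p = 0.00687) and 1.58 ± 0.26 at the second (edgeR adjusted p = 0.00677). The split by position was made after the data were seen. With all 9 genes summed the change was 1.06 ± 0.24 (edgeR adjusted p = 0.0222), a call lost without 0 h replicate 3 or any 12 h library (up to 0.0763).

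The single CESA1 genes were divided likewise. At the first position MS.gene22247 (chromosome 3.4, 39112866 to 39116520) had 2.83, 2.54 and 3.41 FPKM at 12 h, against 10.7, 8.48 and 7.32 FPKM at 0 h (log2 change -1.96 ± 0.28, edgeR adjusted p = 0.00902), lost without 12 h replicate 1 or 2 (up to 0.0532). MS.gene019128 on chromosome 3.3 was called as well (log2 change -2.21), lost without any 12 h library (up to 0.0884). At the second position the tandem pair MS.gene072909 and MS.gene81088 (chromosome 3.4, 93382070 to 93401591) was higher. MS.gene072909 had 32.7, 33.7 and 34.7 FPKM at 12 h, against 10.3, 12.1 and 6.46 FPKM at 0 h (log2 change 1.44 ± 0.27, edgeR adjusted p = 0.0234), lost without 0 h replicate 1 or any 12 h library (up to 0.0916). MS.gene81088, the most abundant CESA gene, was called at an edgeR adjusted p of 0.0463 (log2 change 1.25), which held only without 0 h replicate 2 or 48 h replicate 2 (up to 0.138). All 4 genes of the first position were lower in all 3 libraries of 12 h than in any of 0 h. At the second position MS.gene32617 varied within 12 h, with 16.2, 0.296 and 16.4 FPKM.

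**Figure D4:**
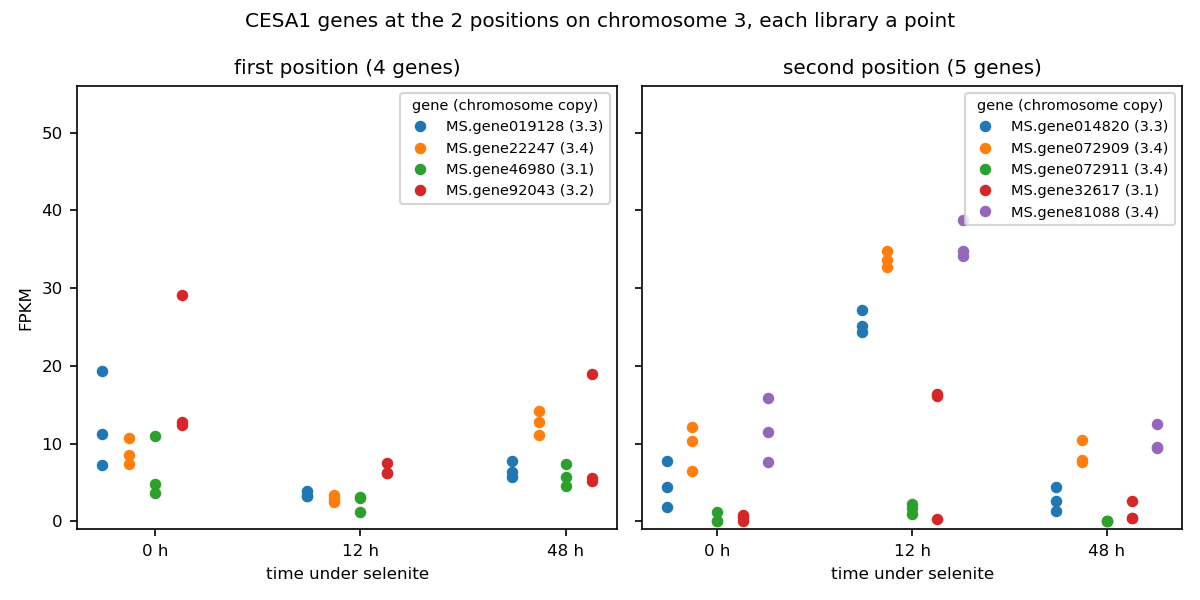
FPKM (y axis) of each of the 9 CESA1 genes by time under selenite (x axis), with the 4 genes of the first position on the left and the 5 of the second on the right. Points are libraries and colours are genes. At 12 h the genes of the first position lie between 1.19 and 7.47 FPKM, and MS.gene072909 and MS.gene81088 of the second position between 32.7 and 38.8 FPKM.

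The other primary wall subunits changed less or not detectably. Summed CESA3 on chromosome 8 had 20.3, 21.5 and 11.0 FPKM at 12 h, against 24.1, 26.4 and 27.8 FPKM at 0 h (log2 change -1.04 ± 0.28, edgeR adjusted p = 0.0411). With library totals alone that call was lost, and without 1 library in turn it held only without 48 h replicate 2 (up to 0.108). CESA2, an Arabidopsis primary wall subunit that overlaps with CESA6 in function, had 56.3, 36.0 and 79.3 FPKM at 12 h and 39.5, 69.1 and 42.4 FPKM at 0 h (log2 change -0.25 ± 0.36, edgeR adjusted p = 0.708). Its copies on chromosomes 4.1 and 4.3 came and went between libraries of the same time: MS.gene70272 had 0, 24.0 and 10.7 FPKM at 0 h, 18.3, 3.93 and 0 FPKM at 12 h, and 0, 15.3 and 11.4 FPKM at 48 h. A cellulose synthase 3 gene, MS.gene86751 (chromosome 3.4, 23048339 to 23055735), had 23.6, 24.3 and 24.0 FPKM at 12 h, against 9.33, 5.47 and 4.23 FPKM at 0 h (log2 change 1.56 ± 0.33, edgeR adjusted p = 0.0342). That call held only without 0 h replicate 1 or 48 h replicate 2 (up to 0.117), and its summed copies did not pass (log2 change 0.63, edgeR adjusted p = 0.118).

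CSLG2 held the largest log2 change among the 6 genes called higher at 12 h. Group G of the cellulose synthase-like family is known in spinach for a member that attaches glucuronic acid to saponins. The 4 CSLG2 genes on chromosome 1 summed to 18.4, 11.7 and 4.30 FPKM at 0 h, to 128, 154 and 140 FPKM at 12 h, and to 29.8, 19.2 and 31.1 FPKM at 48 h. The log2 change for 12 h against 0 h was 3.21 ± 0.43 (edgeR adjusted p = 0.00266) and held without each library. Most of it came from MS.gene32137 (chromosome 1.2, 56848634 to 56852284), with 77.8, 80.9 and 94.9 FPKM at 12 h, against 6.34, 4.91 and 3.22 FPKM at 0 h (log2 change 3.77 ± 0.27, edgeR adjusted p = 0.00127). It held without each library and with the replicate number as a block. MS.gene51448 and MS.gene40058 were also higher in all libraries of 12 h, at 27.2 to 30.1 and 17.1 to 24.6 FPKM, and did not pass (edgeR adjusted p = 0.127 and 0.058). The copy on chromosome 1.1, MS.gene004751, was at 17.9 FPKM in 12 h replicate 2 and at 0.432 and 0.365 FPKM in the others.

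In CSLG3 and CSLG1 a single library of 12 h stood apart. The 8 CSLG3 genes summed to 313, 154 and 183 FPKM at 0 h, to 7.42, 6.28 and 262 FPKM at 12 h, and to 61.9, 57.4 and 106 FPKM at 48 h. The 12 h replicate 3 lay within the range of 0 h, and the other 2 libraries of 12 h were far below it. The most abundant copy, MS.gene29949 (chromosome 3.4, 1303066 to 1308252), had 2.49, 2.77 and 114 FPKM at 12 h, against 123.5, 53.0 and 63.1 FPKM at 0 h, and was not called (log2 change -1.37 ± 1.30, edgeR adjusted p = 0.625). CSLG1 on chromosome 2 had the same form with 6.92, 3.89 and 23.6 FPKM at 12 h and 31.7, 14.1 and 19.5 FPKM at 0 h (edgeR adjusted p = 0.237). In copy usage 12 h replicate 3 was close to replicates 1 and 2, so that this gap lies within a set of alike libraries.

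IRX7, known in Arabidopsis for making the end structure of xylan chains, was higher at 12 h. On chromosome 4 its summed copies had 3.30, 7.13 and 3.71 FPKM at 0 h, 27.3, 28.3 and 27.2 FPKM at 12 h, and 8.11, 7.50 and 8.88 FPKM at 48 h. The log2 change for 12 h against 0 h was 2.12 ± 0.32 (edgeR adjusted p = 0.00423) and held without each library. MS.gene09172 (chromosome 4.3, 43635222 to 43637110) was called singly, with 8.45, 9.62 and 11.1 FPKM at 12 h, against 0.284, 0.340 and 1.20 FPKM at 0 h (log2 change 3.52 ± 0.81, edgeR adjusted p = 0.0453), lost without 0 h replicate 1 or 2, any 12 h library or 48 h replicate 3 (up to 0.125). On chromosome 2 IRX7 had 3.89, 4.71 and 5.68 FPKM at 12 h, against 0.129, 2.68 and 0.383 FPKM at 0 h, and did not pass (edgeR adjusted p = 0.343). All 5 IRX7 genes had a log2 change above 0, with a median of 1.96 (2.36 with library totals alone), and 1 of them, on chromosome 2, met the filter through 12 h alone. IRX7 thus moved opposite to laccase-4 and FLA12 at 12 h.

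Of 50 FLA genes, 3 were lower and 1 higher for 12 h against 0 h, near the 4.29% and 1.58% of all genes. On the TMM scale 15 had all libraries of 12 h below and 9 above those of 0 h, beside 17.8% and 19% of all genes, and the median log2 change was -0.81. FLA13 stood at 51.8, 75.7 and 78.0 FPKM at 12 h, against 14.1, 20.3 and 18.3 FPKM at 0 h over 4 copies (log2 change 1.53 ± 0.49, edgeR adjusted p = 0.0756). Its copy MS.gene31415 (chromosome 2.4, 9640253 to 9641121) passed with 29.7, 41.5 and 46.6 FPKM at 12 h, against 5.68, 6.95 and 4.84 FPKM at 0 h (log2 change 2.38 ± 0.54, edgeR adjusted p = 0.042), a call that held only without 48 h replicate 2 or 3 (up to 0.128). FLA10, the most abundant FLA, had 128, 156 and 170 FPKM at 12 h, against 53.7, 77.9 and 77.7 FPKM at 0 h, separate but not called (log2 change 0.69, edgeR adjusted p = 0.445). FLA7 varied at 0 h between 5.99, 44.7 and 17.3 FPKM and lay at 36.6, 36.1 and 34.3 FPKM at 12 h. FLA2 and FLA16, both abundant, had log2 changes of -0.18 and 0.00. FLA4, whose Arabidopsis counterpart is needed for root growth under salt, had 3.48, 2.87 and 2.66 FPKM at 12 h and 1.85, 2.66 and 1.99 FPKM at 0 h (log2 change 0.03, edgeR adjusted p = 0.974).

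CSLD3 and CSLE1 gave no call. CSLD3, which in Arabidopsis root hairs serves tip growth, had log2 changes above 0 in all 6 genes for 12 h against 0 h, but 3 of them met the filter through 12 h alone. Its sum of 9.86, 10.9 and 10.9 FPKM at 12 h lay above the 4.45, 3.63 and 3.42 FPKM of 0 h. CSLE1 had a median of 0.00 at 12 h (0.37 with library totals alone).

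For 48 h against 0 h few calls were made, which does not show that levels were alike. A single gene was called, the CSLG2 copy MS.gene32137, with 18.7, 18.5 and 19.9 FPKM at 48 h, against 6.34, 4.91 and 3.22 FPKM at 0 h (log2 change 2.07 ± 0.25, edgeR adjusted p = 0.0253). That call was lost without 12 h replicate 1 or 2, or 48 h replicate 1 or 3 (up to 0.0712). It makes 1 gene higher (0.649%) and 0 lower, beside 0.647% higher and 0.497% lower of all genes tested. At an unadjusted p under 0.05 edgeR had 15 of the 154 genes, DESeq2 called 9 higher and 3 lower, and limma on log2(FPKM + 1) called 2 higher and 1 lower. All 3 libraries of 48 h lay above those of 0 h for 11 members (7.14%, against 11.2% of all genes) and below them for 15 (9.74%, against 11.8%). The median log2 change was -0.06, beside -0.05 for all genes. Of the 51 summed copies 0 were called by edgeR, 6 had an unadjusted p under 0.05, and DESeq2 called 3 higher and 1 lower. Among all 19802 groups edgeR called 3.57% higher and 3.34% lower. With groups split by position, 0 of 54 were called, beside 3.51% higher and 3.32% lower of all. Without 48 h replicate 2, edgeR called 5 genes and 3 groups.

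On the TMM scale 6 groups (11.8%) had all libraries of 48 h above those of 0 h and 4 (7.84%) had them below, without passing. The same shares over all groups were not computed, and over all single genes they were 11.2% and 11.8%. The groups that follow are given as a description. CSLG3 on chromosome 3 had 43.3, 51.4 and 86.9 FPKM at 48 h, below the 294, 128 and 142 FPKM of 0 h (log2 change -1.49 ± 1.27, edgeR adjusted p = 0.545). Over all 15 group G genes the median log2 change was -1.18, and 8 had all libraries of 48 h below those of 0 h. Summed CSLE1 on chromosome 3 had 38.5, 22.6 and 47.8 FPKM at 48 h and 23.5, 17.3 and 6.11 FPKM at 0 h, which overlap before scaling (log2 change 1.29 ± 0.37, edgeR adjusted p = 0.075), and all 7 CSLE1 genes had a log2 change above 0. COBRA-like protein 2 on chromosome 2 had 4.16, 8.72 and 4.08 FPKM at 48 h, below the 12.0, 32.2 and 17.2 FPKM of 0 h (log2 change -1.74 ± 0.52, edgeR adjusted p = 0.0815). The summed CSLG2 copies had 29.8, 19.2 and 31.1 FPKM at 48 h, above the 18.4, 11.7 and 4.30 FPKM of 0 h (log2 change 1.36 ± 0.40, edgeR adjusted p = 0.0813). Of the groups called lower at 12 h, FLA12 had a log2 change of 0.31 on chromosome 2, and laccase-4 one of 0.44 on chromosome 3.

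At 48 h against 12 h the direction turned for most of the groups named above. This comparison shares the 12 h libraries with the first, so that opposite signs are not independent. Of the 154 genes 17 (11.0%) were higher and 7 (4.55%) lower, beside 6.96% higher and 3.61% lower of all genes tested, and with library totals alone 14 were higher and 10 lower. All 3 libraries of 48 h lay above those of 12 h for 44 members (28.6%, against 20.8% of all genes) and below them for 31 (20.1%, against 23.7%). The median log2 change was 0.35 and turned to -0.16 with library totals alone, where the median of all genes was -0.54. Without 12 h replicate 2 the number of called genes was 9, without 12 h replicate 1 or 48 h replicate 3 it was 11, without 48 h replicate 1 it was 13, and the highest was 28, without 0 h replicate 1. Of the 51 summed copies 12 (23.5%) were higher and 4 (7.84%) lower, beside 12.3% and 9.37% of all groups, and 7 were called in all without 12 h replicate 1, 8 without 12 h replicate 2 or 48 h replicate 1. With groups split by position, 14 of 54 were higher and 4 lower, beside 12.3% and 9.37%.

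FLA12, laccase-2 and laccase-4 were higher at 48 h than at 12 h. Members of laccase-2, laccase-4 and FLA12 on chromosome 4 met the filter mainly through 0 and 48 h. That favours a higher value at 48 h. Summed FLA12 rose by a log2 change of 3.65 ± 0.45 on chromosome 2 (edgeR adjusted p = 0.00127) and of 4.5 ± 0.8 on chromosome 4 (edgeR adjusted p = 0.00602), both held without each library. Summed laccase-2 rose by 7.69 ± 1.68 (edgeR adjusted p = 0.014), held without each library, with 3.58, 5 and 1.03 FPKM at 48 h, against 0, 0 and 0.0519 FPKM at 12 h. Laccase-4 rose by 3.60 ± 0.75 on chromosome 3 (edgeR adjusted p = 0.0119), lost without 12 h replicate 1 (0.0525), and by 2.99 ± 0.80 on chromosome 4 (edgeR adjusted p = 0.03), lost without any 12 h library or 48 h replicate 1 or 2 (up to 0.103).

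Summed CESA4 and CESA8 passed on chromosome 2, and CESA8 on chromosome 4 did not. On chromosome 4 CESA8 had 0.853, 0.664 and 0.928 FPKM at 48 h, all below the 1.80, 1.79 and 1.83 FPKM of 12 h (log2 change -0.64 ± 0.30, edgeR adjusted p = 0.168). Summed CESA4 had 6.89, 9.91 and 3.98 FPKM at 48 h, against 2.74, 3.17 and 1.15 FPKM at 12 h (log2 change 2.09 ± 0.62, edgeR adjusted p = 0.0424), lost without 0 h replicate 1, any 12 h library or 48 h replicate 1 or 2 (up to 0.113). Summed CESA8 on chromosome 2 had 4.30, 6.77 and 2.94 FPKM at 48 h, against 1.77, 1.65 and 1.18 FPKM at 12 h (log2 change 2.14 ± 0.58, edgeR adjusted p = 0.031), lost without any 12 h library or 48 h replicate 1 or 2 (up to 0.0949). Both calls were also lost with library totals alone. The CESA8 copy MS.gene01595 had 1.17, 0.998 and 1.03 FPKM at 48 h and no count at 12 h, at least 85.3-fold higher (edgeR adjusted p = 0.00648), held without each library. The COBRA-like protein 4 copy MS.gene021978 had 1.56, 2.66 and 0.999 FPKM at 48 h and no count at 12 h, at least 62.5-fold higher (edgeR adjusted p = 0.0279), lost without any 12 h library or 48 h replicate 1 or 3 (up to 0.0769). Neither copy met the filter in a library of 12 h, which favours a higher value at 48 h.

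CSI1 and CSLH1 also stood higher at 48 h. CSI1 on chromosome 7 rose by 2.83 ± 0.29 (edgeR adjusted p = 0.000673), and its copies MS.gene023795, MS.gene52172 and MS.gene42235 by 4.08, 3.70 and 3.58, all 4 results held without each library. MS.gene023795 and MS.gene42235 met the filter through 48 h alone, which favours a higher value there. MS.gene023795 had 2.84, 1.58 and 3.39 FPKM at 48 h, against 0.250, 0.173 and 0.170 FPKM at 12 h, and was at 0.596, 0.648 and 0.568 FPKM at 0 h. CSLH1 on chromosome 2 rose by 3.10 ± 0.41 (edgeR adjusted p = 0.00181), held without each library. Of its genes 5 passed singly as higher, beside 6.96% of all genes. Among them MS.gene35710 had 17.5, 17.6 and 24.1 FPKM at 48 h, against 2.17, 1.08 and 1.10 FPKM at 12 h. The calls of MS.gene034351 and MS.gene059305 held in only 4 and 2 of the 9 fits without a library, the others in 8 or 9. FLA11 rose by 4.26 ± 1.19 on chromosome 2 and 4.63 ± 1.29 on chromosome 4 (edgeR adjusted p = 0.0347 and 0.0349). These calls were lost without 12 h replicate 1 or 2 or 48 h replicate 1 or 3, and the second also without 0 h replicate 1 (up to 0.0979 and 0.109). The members of both groups met the filter only through 0 and 48 h, which favours a higher value at 48 h. FLA11 on chromosome 7 and summed COBRA-like protein 4 did not pass (log2 changes 1.35 and 1.96, edgeR adjusted p = 0.189 and 0.108). Summed CESA3 was higher by 0.91 ± 0.28 (edgeR adjusted p = 0.047), which held only without 0 h replicate 1 or 3 (up to 0.107).

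A set of 4 summed groups was lower at 48 h than at 12 h. CSLG2 fell with a log2 change of -1.85 ± 0.41 (edgeR adjusted p = 0.0147) and CESA1 with one of -1.20 ± 0.24 (edgeR adjusted p = 0.00996), both held without each library. The CESA1 positions again parted, with a log2 change of 1.72 ± 0.33 at the first (edgeR adjusted p = 0.00791) and -1.67 ± 0.26 at the second (edgeR adjusted p = 0.00377). IRX7 on chromosome 4 fell with a log2 change of -1.24 ± 0.31 (edgeR adjusted p = 0.0225) and FLA1 on chromosome 3 with one of -2.00 ± 0.57 (edgeR adjusted p = 0.0383), and both calls were lost without any 12 h library or 48 h replicate 1 or 3 (up to 0.075 and 0.117). Both FLA1 members met the filter through 12 h alone, which favours a lower value at 48 h. FLA1 had 0.365, 1.34 and 0.652 FPKM at 48 h, against 4.32, 5.53 and 4.03 FPKM at 12 h. The abundant FLA10 had 30.8, 71.8 and 14.2 FPKM at 48 h, all below the 128, 156 and 170 FPKM of 12 h, and did not pass (log2 change -1.43, edgeR adjusted p = 0.0929).

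Other genes of these pathways are given as counts of edgeR calls beside the shares over all genes. Of 29 tested genes for cellulose supply and assembly, 0 were higher and 1 lower for 12 h against 0 h (1.58% and 4.29% of all genes). For 48 h against 0 h these counts were 0 and 1 (0.647% and 0.497%), and for 48 h against 12 h 3 and 0 (6.96% and 3.61%). All of these calls were sucrose synthases, which supply UDP-glucose. MS.gene070146 had 7.18, 7.35 and 9.39 FPKM at 12 h and 19.6, 31.1 and 9.59 FPKM at 0 h. Of 122 tested genes for xylan and its acetylation, 5 were higher and 3 lower for 12 h against 0 h, beside 1.58% and 4.29% of all genes. For 48 h against 12 h 3 were higher and 4 lower, beside 6.96% and 3.61%. Their sum in unscaled FPKM was 681 to 764 at 12 h and 358 to 635 at 0 h. On the TMM scale their median log2 change for 12 h against 0 h was -0.07. The higher ones at 12 h were 2 genes each for TRICHOME BIREFRINGENCE-LIKE 19 and 41 and a UDP-glucuronic acid decarboxylase 1, and the lower ones included an alpha-glucuronosyltransferase of xylan, MS.gene011941, with 0, 0.0507 and 0.0833 FPKM at 12 h, against 6.58, 6.93 and 3.52 FPKM at 0 h. Of 20 other arabinogalactan genes none was called at 12 h or 48 h against 0 h. At 48 h against 12 h 1 was higher, beside 6.96% of all genes. Only 4 of 125 matched secondary wall regulators were tested and none was called, with sums of 6.40 to 16.8 FPKM at 12 h, below the 19.8 to 37 FPKM of 0 h, and a median log2 change of -1.68.

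Markers of the leaf's other cells also differed between times. Mesophyll genes, the small subunit of RuBisCO and chlorophyll a-b binding proteins, summed to 92847 to 105292 FPKM at 12 h and 100559 to 154879 FPKM at 0 h, so that the labelled tissue was present in every library, and 36 of 86 tested were lower for 12 h against 0 h, beside 4.29% of all genes. All 36 were chlorophyll a-b binding genes. The 24 RuBisCO genes tested had a median log2 change of -1.21 and overlapping sums of 79982 to 92692 FPKM at 12 h and 71042 to 101119 FPKM at 0 h. Epidermal and guard cell genes summed to 55.1 to 133 FPKM at 12 h, below the 160 to 228 FPKM of 0 h, with 5 of 27 lower. All 5 were among the 20 tested ECERIFERUM 2 and 3 genes, which summed to 32.8 to 74.7 FPKM at 12 h and 154 to 214 FPKM at 0 h. The lower calls and the lower sum of the list thus came from these genes. Phloem genes overlapped, at 897 to 1660 FPKM at 12 h and 523 to 1599 FPKM at 0 h. B-type cyclins of dividing cells, 4 of them tested, summed to 43.3 to 65.0 FPKM at 12 h and 46.0 to 75.7 FPKM at 0 h. All 43 nodule or root genes were at 0 counts in all 9 libraries. The part of these cell types in the wall gene changes was not tested.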

How the data were processed

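Gene counts and FPKM were deposited by the authors for 9 leaf libraries; per the submitters' processing notes, HISAT and StringTie were used to make these count and FPKM values, with versions, roles and genome build not given in the sources used here. An FPKM of 0.0001 stands for a count of 0 in the deposited table. From the counts, the 50878 genes that reached an FPKM of 1 in 3 or more libraries were tested with edgeR 4.0.16 (quasi-likelihood test, TMM, R 4.3.3) in 1 fit with a mean per time, and p-values were adjusted by Benjamini-Hochberg over all of them, with a threshold of 0.05. The tested genes held 97.9% to 98.5% of the counts. FPKM values are per library. Changes and overlaps between groups are on the TMM scale, but sums of families, markers and pathway lists are compared as unscaled FPKM. A fold against a group without counts was computed against 3 counts per library. The SE is the log2 change divided by the square root of the F statistic. Alternatives used DESeq2 1.42.0 and limma 3.58.1.

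Simulated data with 200 changed genes tested the fit: for 12 h against 0 h it recovered 0% of changes of 4-fold, 9.86% of 16-fold and 35.9% of 64-fold, with 0 false calls among 50878 genes. In the data 2991 genes were called for this comparison, and an adjusted p is harder to pass when few genes change. These rates are thus not the power of the calls above. Summed copies were not simulated. Same-numbered libraries did not deviate together (correlations -0.05 to 0.03), so replicate numbers were not taken as pairs. Genes were named per family by highest mean FPKM, by smallest adjusted p (up to 3 called genes per comparison) and by largest and smallest change among genes whose higher group averaged 5 FPKM or more; copies and groups beside them were chosen after their values were seen. The members and lists were chosen with earlier results of these data known. The deposited gene IDs matched 0 entries of the reference table, so sequences are not shown.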

Additional observations from a re-analysis of the deposited data

Results flagged for a closer look

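Among the 48 genes named by rule, those called by edgeR for 48 h against 12 h were searched, so that each gene below had passed that test. In 6 of them all libraries of 12 h lay on one side of the 0 h libraries and all of 48 h on the other. The CESA1 gene MS.gene22247 had a log2 change of 2.55 for 48 h against 12 h. Of the CSI1 copies on chromosome 7, 3 had 4.08 (MS.gene023795), 3.58 (MS.gene42235) and 3.70 (MS.gene52172), and the first and second of them met the FPKM filter through 48 h alone. The CSLH1 gene MS.gene034352 had 2.14, lost without 12 h replicate 2 (edgeR adjusted p = 0.0542). The FLA1 gene MS.gene94954, which met the FPKM filter through 12 h alone, so that a lower value at 48 h was favoured, had -2.76, lost without any 12 h library or 48 h replicate 1 or 3 (edgeR adjusted p up to 0.0907). Groups of 3 libraries were not searched for outlying samples.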

How the results depend on the processing

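For 12 h against 0 h, 21 of the 154 genes were called by edgeR. The count was 9 without a filter, 51 with DESeq2, 35 and 33 with limma on log2(FPKM + 1) and log2(FPKM + 0.1), and 0 after adding up libraries that share copy usage. Of the summed copies 13 were called, against 22 with DESeq2, 20 with limma on log2(FPKM + 1) and 0 with like libraries summed. The median log2 change of -0.60 became -0.20 with library totals alone, and -0.18 and -0.25 with limma at the 2 pseudocounts. For 48 h against 0 h, 1 gene was called, against 12 with DESeq2, 3 and 2 with limma, 0 with only the 6 libraries compared and 0 with like libraries summed. There 0 summed copies were called, against 4 with DESeq2 and 1 with limma at either pseudocount. For 48 h against 12 h, 24 genes were called, against 14 without a filter, 47 with DESeq2, 43 and 41 with limma and 0 with like libraries summed. Summed copies numbered 16, against 25 with DESeq2 and 0 with like libraries summed. The median of 0.35 became -0.16 with library totals alone and 0.01 with limma on log2(FPKM + 1). The cause of these shifts was not tested.

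With the replicate number as a block, 3 genes and 8 summed copies were called for 12 h against 0 h, and 0 genes for 48 h against 0 h; the numbers do not pair the libraries.

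Without 1 library in turn the member medians ranged from -0.79 to -0.31 (12 h against 0 h), from -0.33 to 0.12 (48 h against 0 h) and from 0.08 to 0.60 (48 h against 12 h). Called genes ranged from 2 to 27, 0 to 5 and 9 to 28, and summed copies from 6 to 15, 0 to 3 and 7 to 18.

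Of 1536 alternatives to 77 values of named genes, 1216 kept direction and side of the threshold, 245 lost a call, 42 gained one and 33 reversed, 3 of these among called values. Summing copies turned MS.gene019128 and MS.gene22247 to 1.06 for 12 h against 0 h and MS.gene22247 to -1.20 for 48 h against 12 h, since both CESA1 positions then enter 1 sum. The other reversals by summing were MS.gene60497 (0.63) and MS.gene91968 (0.22) for 12 h against 0 h. For 48 h against 0 h they were MS.gene22247 (-0.14), MS.gene27647 (0.43), MS.gene66611 (0.07) and MS.gene86751 (-0.13). For 48 h against 12 h they were MS.gene020966 (-0.34) and MS.gene66611 (0.70). Library totals alone and limma at the 2 pseudocounts turned MS.gene05667 to -0.29, -0.21 and -0.23 (48 h against 12 h). For 12 h against 0 h they turned MS.gene60497 to 0.12, 0.15 and 0.18, and MS.gene66611 to 0.20, 0.24 and 0.27. Without 1 library MS.gene05664 ranged from -0.36 to -0.05 over 3 fits and MS.gene60497 ranged from -0.44 to 0.10 (12 h against 0 h). MS.gene66611 ranged from -0.40 to 0.24 for 12 h against 0 h, from -1.36 to 0.00 for 48 h against 0 h and from -1.18 to 0.11 for 48 h against 12 h, where 0.02 was a further reversed value. MS.gene021977 was at 0.03 to 0.10 for 48 h against 12 h. With like libraries summed, MS.gene021977 (0.01) and MS.gene66611 (0.05) reversed for 48 h against 12 h.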
